A study of Homo sapiens with 4 samples.

Results

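The regions described here are the H3K14ac regions of MKN45 cells whose midpoint lay in 1 of 12 windows of 1 Mb where the background measured around the regions was high. They numbered 226 of the 39876 regions of the control list and 414 of the 28187 regions of the knockdown list, or 640 of 68063 in all. The windows were selected on that measured background, so the background inside them is given as a description and supports nothing by itself. Each window is called by a gene in it: on chromosome 7 the CHN2 window (chr7:29000001-30000000), the PPIA window (chr7:44000001-45000000), the TPST1 window (chr7:66000001-67000000), the MET window (chr7:116000001-117000000) and the FAM3C window (chr7:121000001-122000000). The others are the LGR4 window (chr11:27000001-28000000), the CD2AP window (chr6:47000001-48000000), the PPFIBP1 window (chr12:27000001-28000000), the AMN1 window (chr12:31000001-32000000), the MDM2 window (chr12:68000001-69000000), the MAP4K3 window (chr2:39000001-40000000) and the SOX9 window (chr17:72000001-73000000). Coordinates are those of hg38.

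MKN45 is an established gastric cancer line. Cells carried either a hairpin against NIT2, an amidase of the nitrilase family, called shNIT2 or the knockdown, or the control hairpin shNT. Chromatin immunoprecipitation with an antibody to H3K14ac was followed by sequencing of 1 library per hairpin, and the values come from 1 list of called regions per library. With 1 library in each arm there is no test between the arms, and fragment counts differ with the depth of the libraries.

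H3K14ac is acetylation of lysine 14 of histone H3, a mark that occurs at active promoters and enhancers. A peak caller compares the fragments piled up at a place with a background taken from a control library, the larger of a genome-wide floor and the local level. A stretch of the genome present in extra copies adds fragments to the control library and to the immunoprecipitate alike. MKN45 is known for an amplified MET gene, which encodes the receptor for hepatocyte growth factor. Copy number was not measured in these samples, so the windows are called high-background windows and not amplified ones.

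The 250 bases before the start of 4 genes with a region at that start in both lists are shown. These genes lie in the MET, MDM2 and LGR4 windows and are among the 6 genes marked in both lists with the highest knockdown fold. The sequences are from RefSeq on GRCh38.p14, run from 5′ to 3′ along the gene, and carry in capitals each match to GGGCGG (the GC box) or CCAAT on either strand.
MET, chr7:116671946-116672195, plus strand: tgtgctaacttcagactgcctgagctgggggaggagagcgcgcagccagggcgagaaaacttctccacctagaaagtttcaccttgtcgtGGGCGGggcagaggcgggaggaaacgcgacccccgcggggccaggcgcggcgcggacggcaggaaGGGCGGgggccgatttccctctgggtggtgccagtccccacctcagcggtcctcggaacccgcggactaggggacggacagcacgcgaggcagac
TES, chr7:116210289-116210538, plus strand: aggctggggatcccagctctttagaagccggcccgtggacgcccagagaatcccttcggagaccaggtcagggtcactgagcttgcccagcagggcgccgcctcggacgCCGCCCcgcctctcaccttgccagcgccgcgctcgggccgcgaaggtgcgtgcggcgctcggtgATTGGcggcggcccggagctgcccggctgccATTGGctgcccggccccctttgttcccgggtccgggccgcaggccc
MDM2, chr12:68807922-68808171, plus strand: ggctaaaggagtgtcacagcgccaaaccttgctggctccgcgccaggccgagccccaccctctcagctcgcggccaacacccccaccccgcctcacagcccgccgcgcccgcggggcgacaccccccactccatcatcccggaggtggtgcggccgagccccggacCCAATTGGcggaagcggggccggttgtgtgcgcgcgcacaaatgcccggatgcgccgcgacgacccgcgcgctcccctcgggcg
LGR4, chr11:27472791-27473040, minus strand: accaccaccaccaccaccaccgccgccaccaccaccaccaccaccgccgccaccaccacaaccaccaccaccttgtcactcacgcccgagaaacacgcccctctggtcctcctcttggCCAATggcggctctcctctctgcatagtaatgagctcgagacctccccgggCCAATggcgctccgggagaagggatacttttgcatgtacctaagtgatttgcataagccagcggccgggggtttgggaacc
In MDM2 the capitals hold CCAAT on both strands, overlapping each other. The MET, TES and LGR4 stretches were touched by no region at all, while 16 of the 250 MDM2 bases lay in a control region and 73 in a knockdown region. CpG pairs numbered 24 in MET, 28 in TES, 33 in MDM2 and 14 in LGR4, beside a median of 11 over the 35116 promoters of the table. Those promoters were not filtered by gene type, while the genes shown all code for proteins, so the sets are not alike. Among the 6 genes marked in both lists with the highest knockdown fold, these 4 with PPIA and TNFRSF21, GGGCGG stood in 4, CCAAT in 4, TATAAA in 1, CACGTG in 1 and TGANTCA in 0. The shares of all promoters with these letters on either strand were 42.6%, 32%, 10.7%, 6.34% and 6.57% in that order. The 6 genes were picked by fold, so their counts need not hold for the other genes marked in both lists. Of 18 window genes marked in both lists, the first of these letter strings stood in 13 and the second in 6. For the second string this is near its share of all promoters. All these are matches of letters and not binding sites.

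The strongest regions at the MET, TES and LGR4 starts lay downstream of the stretches printed. The strongest at MDM2 began within the stretch and ran downstream. In the control list the MET region ran from 174 to 694 bp after the start, with its summit at 407 bp. In the knockdown list it ran from 28 to 2921 bp, with its summit at 432 bp. The TES region had its summit at 231 bp in the control list and at 317 bp in the knockdown list, where it reached 3970 bp. MDM2, the ubiquitin ligase that acts on p53, had summits at 234 and 282 bp. LGR4, a receptor for R-spondins, had summits at 419 and 394 bp. Its knockdown region was 8118 bp wide, the seventh widest of that list, and took in both control regions of that stretch, the one at the start and one with its summit at 5832 bp. At each of the 6 starts the strongest knockdown region was wider than the strongest control region and overlapped it. Weaker knockdown regions lay before some of the starts. They ran from -2102 to -338 bp at MET (fold 4.84) and from -1477 to -425 bp at MDM2 (fold 3.13). At LGR4 such a region ran from -1014 to -745 bp (fold 1.83), and at PPIA from -1064 to -306 bp (fold 5.42).

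**Figure D1:**
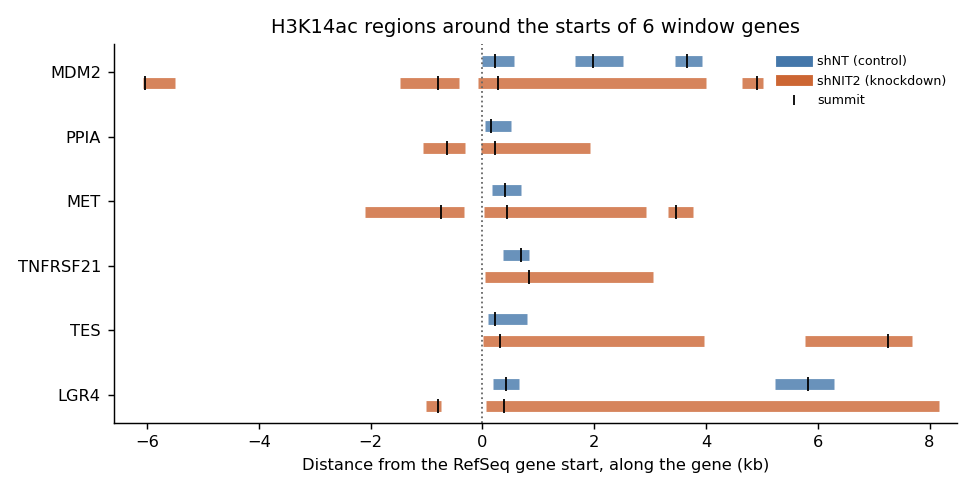
H3K14ac regions (bars) and their summits (black ticks) around the starts of the 6 genes marked in both lists with the highest knockdown fold. The horizontal axis is the distance from the RefSeq start along the gene in kb. At each start the strongest region of each list has its summit within 1 kb after the start, and the strongest knockdown bar runs further downstream than the strongest control bar. Other bars are weaker regions, some before the start and some further downstream.

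For every region 2 quantities were recovered from the authors' −log10 p-value and fold: the pileup, which is the number of H3K14ac fragments at its summit, and the background. The lowest background of a list, its floor, was 0.278 fragments in the control list and 2.48 in the knockdown list, an 8.93-fold difference. A floor scales with the depth of a library. Of the solved backgrounds, 43.2% in the control list and 38.9% in the knockdown list were whole multiples of 0.0551 and 0.638, within 1% of that step. A step is taken here as the worth of 1 fragment of the control library, which lets the background be read in control fragments. The floor came to 5.04 control fragments in the control list and 3.89 in the knockdown list. The sources used here do not say which library the caller took as control.

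The MET window stood highest. Its median background was 15.3 times the floor in the control list (lowest 10.2, highest 20.6, 41 regions) and 21.8 times in the knockdown list (13.9 to 37.3, 59 regions). That is 77.1 and 84.6 control fragments. In the FAM3C window the median was 9.38 and 15.7 times the floor, and in the LGR4 window 5.56 and 8.0 times. The 9 other windows were near each other, between 2.43 and 3.53 times in the control list and between 3.09 and 4.22 times in the knockdown list. Outside the 12 windows the median region had 1.39 and 1.67 times the floor. The order of the windows was much the same in both lists, with a Spearman correlation of 0.951 over the 12 windows and a Pearson correlation of the log2 values of 0.994. Without the 3 highest windows the latter was 0.878. These correlations are descriptions, since all windows share the same pair of libraries and were chosen as high.

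**Figure D2:**
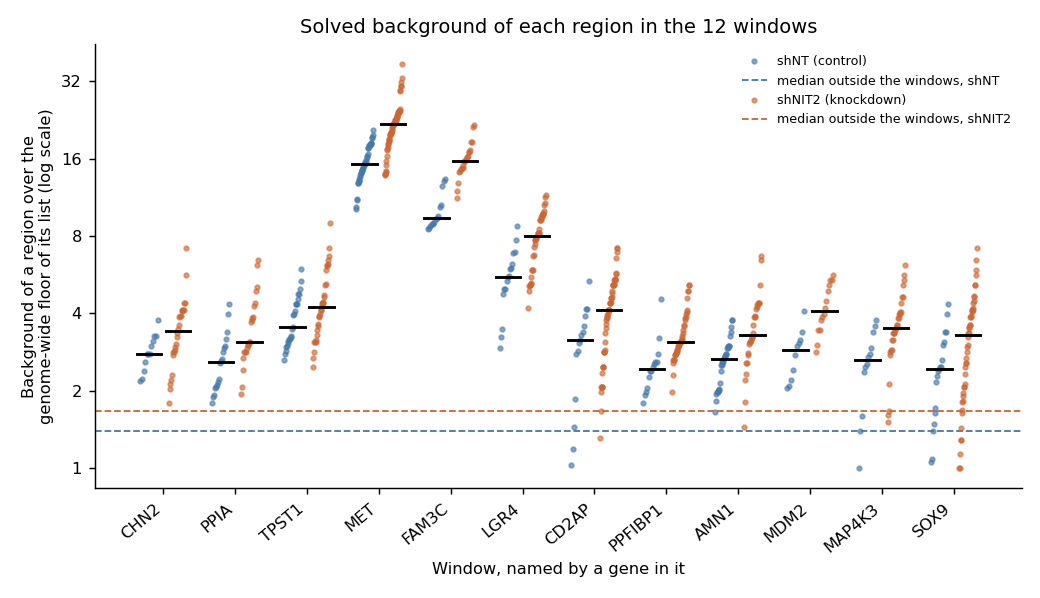
Solved background of each region over the floor of its list (log scale), by window. Black lines are medians and dashed lines the medians outside the windows. The MET, FAM3C and LGR4 windows stand above the other 9 in both lists, and the MET medians are 15.3 and 21.8.

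The high background of the MET and FAM3C windows belonged to a longer stretch of chromosome 7. From the window 2 Mb before MET to the window 5 Mb after it, every 1 Mb window with regions had a median of at least 3.95 times the floor in the control list and 6.82 times in the knockdown list. Both of these lowest values were 2 Mb after MET, between the MET and FAM3C windows, from 5 control and 2 knockdown regions. At 3 Mb after MET there were 4 control and 0 knockdown regions. The window 3 Mb before MET had 1.61 and 2.06 times the floor. The window just after MET had 11.5 and 15.6 times, and the one 1 Mb before FAM3C had 9.07 and 22.4 times, from 9 and 5 regions. These last windows lay outside the 12 only by the choice of windows. At 6 Mb after MET the lists parted: the control median was 9.71 times the floor from 4 regions, and the knockdown median 2.56 times from 10. The flanks of the LGR4 window were lower than the window itself, at 1.25 and 1.29 times the floor in the control list in the windows just before and just after it. In the knockdown list these flanks had 1.54 and 2.54 times the floor, from 1 and 3 regions, beside 8.0 in the LGR4 window. Around MDM2, by contrast, the windows just before and after had 3.21 and 2.80 times the floor in the control list, near the 2.87 of the MDM2 window itself. In the knockdown list they had 4.89 and 4.32 times, beside 4.08.

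**Figure D3:**
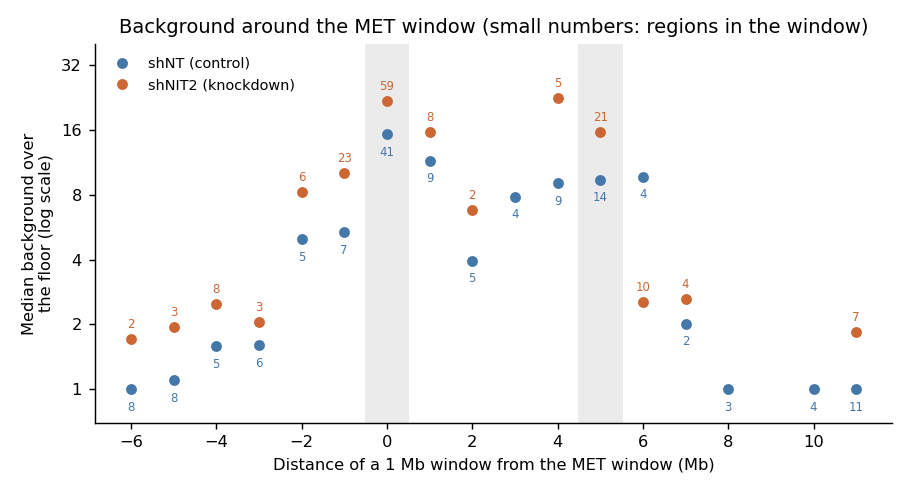
Median background over the floor (log scale) in 1 Mb windows around the MET window, by distance in Mb. Small numbers count the regions, the grey bands mark the MET and FAM3C windows, and windows without regions have no point. The raised stretch starts 2 Mb before MET in both lists, and its last window is 5 Mb after MET in the knockdown list and 6 Mb after in the control list.

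In numbers of regions the knockdown list led in 11 of the 12 windows. The MET window held 41 control and 59 knockdown regions. The largest gap was in the CD2AP window, with 15 control and 54 knockdown regions, 3.60 times as many. The LGR4, PPFIBP1, MAP4K3 and SOX9 windows had 16 and 40, 14 and 39, 12 and 31, and 19 and 48 regions. The CHN2 window had 12 and 26, the PPIA window 18 and 22, the TPST1 window 25 and 32, the FAM3C window 14 and 21, and the MDM2 window 10 and 14. Only the AMN1 window held more control regions, 30 against 28. Over all windows the ratio was 1.83. Outside them it was 0.70, and 1.32 once each chromosome's longest stretch without genes was set aside, so the knockdown list led there too. Other 1 Mb windows with genes held a median of 6 control and 7 knockdown regions.

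Knockdown regions were wider in all 12 windows. The median width was 323.5 bp in the control list and 700 bp in the knockdown list, beside 366 and 571 bp outside the windows. Setting aside the same stretches without genes, the control median outside was 314 bp, so the direction of the control comparison turns with that choice. Window medians ran from 270 to 380 bp in the control list and from 513.5 to 890 bp in the knockdown list, so the window medians of the lists did not overlap. The ratio was highest in the MET window, at 3.01 (296 and 890 bp), and lowest in the MDM2 window, at 1.43 (360 and 513.5 bp). The regions of all windows together covered 86.6 kb in the control list and 446 kb in the knockdown list. The median pileup was 9 fragments in control and 45 in knockdown regions, beside 6 and 22 outside. Depth moved together with number, width and pileup, and its part in these differences was not tested.

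**Figure D4:**
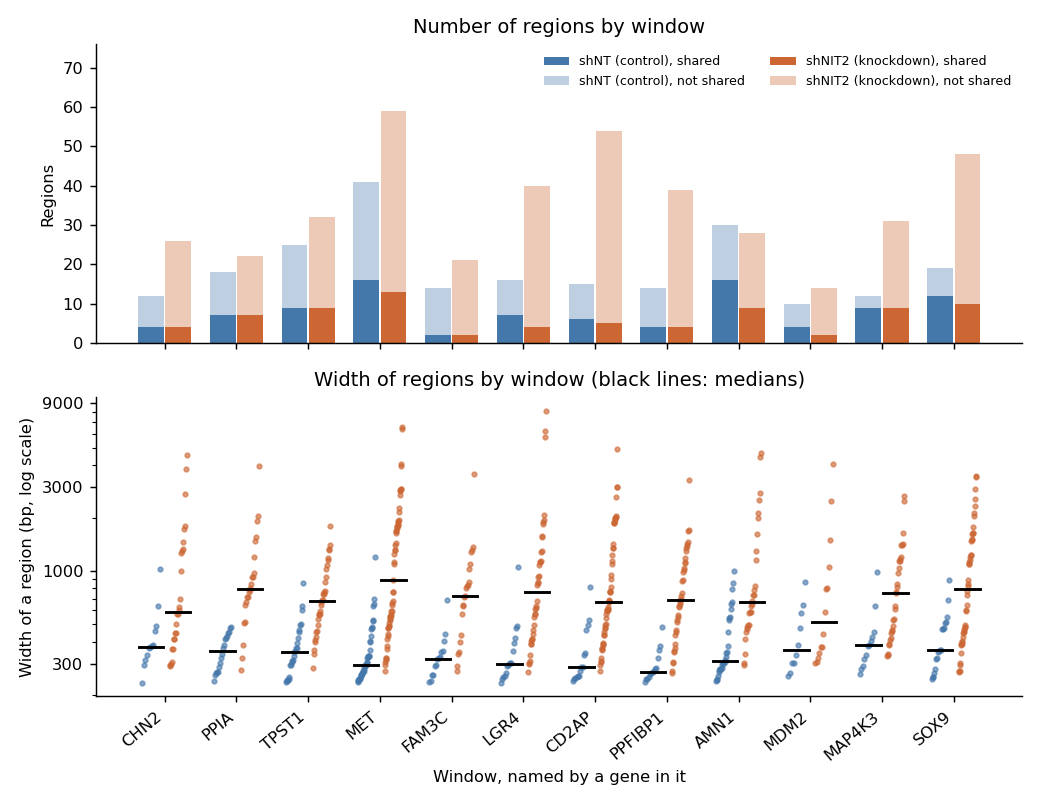
Upper panel: number of regions by window, with the shared regions in full colour and the unshared ones pale. Lower panel: width of each region in bp (log scale) with medians as black lines. The knockdown bars are higher in 11 of 12 windows and the knockdown medians higher in all 12.

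Of the control regions in the windows, 96 of 226 overlapped a knockdown region by at least 1 bp, a share of 42.5% (exact 95% interval 35.9% to 49.2%, which covers counting error only). With a reciprocal overlap of at least 50% that share was 6.64%, and the share of knockdown regions given below was 3.62%. Over the whole control list the share overlapping by at least 1 bp was 9.06%. Outside the windows it was 8.87%, and 16.7% once each chromosome's longest stretch without genes was set aside. Knockdown regions were denser in the windows, with a mean of 34.5 per window beside a median of 7 in other 1 Mb windows with genes. They were also wider there. Both make an overlap of 1 bp easier, and the shares were not adjusted for this. Of the knockdown regions in the windows, 78 of 414 overlapped a control region, 18.8% (15.2% to 22.9%), beside 11.7% of the whole list. The control share was lowest in the FAM3C window (2 of 14) and highest in the MAP4K3 window (9 of 12). The knockdown share was lowest in the CD2AP window (5 of 54) and highest in the AMN1 window (9 of 28).

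Inside the windows the overlap followed the strength of the regions. Among control regions of the windows, 26.6% of those with −log10 q under 5 were shared, 65.0% of those from 5 to 20 and 7 of 7 above. Outside the windows and without the gene-free stretches these shares were 12%, 39.6% and 71.0%. Knockdown regions of the windows were shared in 3.52%, 10.1% and 46.8% of cases, beside 3.83%, 10.3% and 36.9% of all those outside. Below a −log10 q of 20 the knockdown shares inside the windows were therefore near those outside.

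Shared control regions mostly lay within a wider knockdown region. This held for 79 of the 96 pairs. The summits of a pair were a median of 244.5 bp apart, and 45 pairs had summits within 200 bp. Of the knockdown regions, 67 overlapped 1 control region, 6 overlapped 2, 3 overlapped 3 and 2 overlapped 4. In shared pairs the control member was a median of 411.5 bp wide with 13 fragments, and the knockdown member 2057 bp wide with 113 fragments.

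Of 92 protein-coding genes with an end in a window, 20 had a region within 1 kb of a gene end in both lists, which is 21.7% beside 5.12% of all 20037 genes. A further 34 were marked in the knockdown list alone, 37.0% beside 31.7%. None was marked in the control list alone, beside 1.29% of all genes, and 38 were marked in neither. The strongest region sat at the start in 17 of 20 marked genes of the control list and 47 of 54 of the knockdown list. For 2 and 5 of them the table gives no strand. In 19 of the 20 genes marked in both lists a control and a knockdown region at the ends overlapped. The fold was higher in the knockdown list in 17 of the 20. The fold adds 1 to pileup and background, which lowers it more where the background is small. The floors were 0.278 fragments in the control list and 2.48 in the knockdown list, so folds are not on 1 scale between the lists. Without that addition the direction can turn. PURB had 8 fragments over a background of 0.615 in the control list and 56 over 7.45 in the knockdown list. Its plain ratio was thus higher in the control list, although its fold was higher in the knockdown list. At MET, with 26 over 4.96 and 607 over 49.9, both were higher in the knockdown list. Plain ratios were not counted over the 20 genes, so directions here and for the single genes below are those of the fold only. Of 22 genes with at least 4 regions of either list along their whole span, 5 had more control regions.

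Of the 7 genes of the MET window, 4 were marked in both lists, 2 in the knockdown list alone and TFEC, a transcription factor gene, in neither. MET had a control region of 26 fragments over a background of 90.0 control fragments, with a fold of 4.53. In the knockdown list it had 607 fragments over 78.3 control fragments, with a fold of 11.9. Over the floor of its list the background at the MET start was 17.9 times in the control list and 20.1 times in the knockdown list. Control fragments of the lists need not be alike, since the depths of the control libraries are not known. The fold was higher in the knockdown list. TES, which encodes the focal adhesion protein testin, had 25 fragments and a fold of 4.26 in the control list and 530 fragments and a fold of 10.3 in the knockdown list. CAPZA2, a subunit of the actin capping protein, had 25 and 280 fragments with folds of 4.33 and 5.56. CAV2, which encodes a caveolin, had 16 and 409 fragments with folds of 3.24 and 8.48. The stronger of its control regions at the start ended before the knockdown region began, and a weaker control region lay under it.

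CAV1, the main caveolin gene, was marked in the knockdown list alone with 365 fragments over 84.0 control fragments and a fold of 6.71. ST7, known as a candidate tumour suppressor, was also marked there alone, with 282 fragments and a fold of 7.74. ST7 nevertheless held 8 control and 7 knockdown regions along its body, 2 of each in the window, and 0 of them overlapped.

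The body of MET held 10 control and 11 knockdown regions. The strongest region of the whole knockdown list by −log10 p lay here, at chr7:116772840-116779448, 6609 bp wide, with 894 fragments, a fold of 12.1 and a background of 114 control fragments. It took in 3 control regions, the highest of which had 38 fragments and a fold of 6.09. Beyond the 3′ end of MET, within 30 kb, there were 5 control and 6 knockdown regions. This stretch was singled out after its values were seen. Its control region at chr7:116811226-116812425 had 55 fragments, the most of any control region in the windows, and a fold of 8.60. The knockdown region over it had 474 fragments and a fold of 6.39, so here the fold was lower in the knockdown list.

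In the FAM3C window no gene was marked in both lists. FAM3C, which encodes a secreted cytokine-like protein, was marked in the knockdown list alone with 181 fragments and a fold of 4.91. WNT16, a Wnt ligand gene, and CPED1 were marked in neither. PTPRZ1, a receptor tyrosine phosphatase gene, was marked at no end but held 6 control regions of 12 to 19 fragments in its body, 4 of them in the window, and 0 knockdown regions. The folds of these 6 reached 5.29. The nearest knockdown region in the window lay more than 100 kb before the gene. The other genes with more control regions along their span were CAPZA2 (8 and 2), ST7 (8 and 7), OGDH (5 and 4) and DENND5B (4 and 3).

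LGR4 was the only gene of its window marked in both lists, with 20 control fragments and a fold of 7.88 and 179 knockdown fragments and a fold of 9.45. Its body held 5 control regions, all 5 of them shared, and 13 knockdown regions, of which 2 were shared. A second group lay inside the gene: 3 control regions of 20 to 23 fragments fell within a knockdown region of 5761 bp with 255 fragments and a fold of 10.1. LIN7C, a scaffold protein gene, had 99 knockdown fragments and a fold of 4.17, and CCDC34 had 42 fragments and a fold of 1.79. Neither was marked in the control list. BDNF, which encodes a neurotrophin, and BBOX1, an enzyme gene of carnitine synthesis, had no region at an end in either list.

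MDM2 carried the highest fold of any region in the windows. In the control list its start had 28 fragments over 17.1 control fragments and a fold of 14.9. In the knockdown list it had 450 fragments over 15.4 control fragments and a fold of 41.6, second in that list by −log10 p and seventh by fold. The background at MDM2 was thus far below that at MET, while the fold was higher. NUP107, a nuclear pore gene, and RAP1B, a small GTPase gene, had folds of 5.64 and 3.35 in the knockdown list and no control region at an end. MDM1 and CPM, which encodes a carboxypeptidase, had no region at an end, and neither did the cytokine genes IFNG, IL22 and IL26.

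The AMN1 window held a dense group of regions upstream of AMN1 that was singled out after its values were seen. Within 30 kb of the AMN1 start there were 13 control regions, 12 of them shared, and 7 knockdown regions, 5 of them shared. They covered 7.28 kb in the control list and 17 kb in the knockdown list. The highest control region had 45 fragments and a fold of 25.4, the highest fold of any control region in the windows. It lay in a knockdown region at chr12:31730980-31735653 with 384 fragments and a fold of 32.4, which took in 4 control regions. The fewer knockdown regions here were wider and several took in more than 1 control region each. AMN1 itself was marked in the knockdown list alone, with a fold of 5.29. SINHCAF, a component of a SIN3 deacetylase complex, had folds of 4.13 and 7.74 in the control and knockdown lists. RESF1, known from the silencing of retroelements, had folds of 4.21 and 7.64. DENND5B, an exchange factor gene for Rab GTPases, was marked by regions at opposite ends of the gene, with folds of 3.25 and 3.76. ETFBKMT, a lysine methyltransferase gene, was marked in neither.

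In the CD2AP window CD2AP, an adaptor that binds actin regulators, had 5 control and 32 knockdown fragments with folds of 3.96 and 5.59. TNFRSF21, a death receptor gene, had 7 and 112 fragments with folds of 4.01 and 10.5. ADGRF1, an adhesion G protein-coupled receptor gene, was counted in the knockdown list alone, with 218 fragments and a fold of 15.1. Its nearest control regions were at 1051 bp from the gene and inside it, so this state rests on the 1 kb limit. PTCHD4 was marked in the knockdown list alone, with 16 fragments and a fold of 3.58, at an end that lies beyond the window.

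In the MAP4K3 window no gene was marked in both lists. MAP4K3, a kinase gene of stress and growth signalling, had 77 knockdown fragments and a fold of 8.02. THUMPD2 had 34 and a fold of 7.38. SOS1, an exchange factor for RAS, had 23 fragments and a fold of 3.82 at its start, and a stronger knockdown region inside the gene with 74 fragments and a fold of 14.6. In the SOX9 window only the knockdown list marked the 2 genes. SOX9, a transcription factor gene, had 30 fragments over 5.58 control fragments and a fold of 6.80. That background is under the median of 6.48 outside the windows. SLC39A11, a zinc transporter gene, had 19 fragments and a fold of 4.22 at its start, which lies beyond the window. Its body held 4 control and 14 knockdown regions, 4 and 12 of them in the window, the strongest of which had 221 fragments and a fold of 19.8.

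In the PPFIBP1 window TM7SF3 was the only gene marked in both lists, with folds of 4.08 in the control list and 6.44 in the knockdown list. STK38L, a kinase gene of the NDR family, had a fold of 5.06 in the knockdown list alone. PPFIBP1, which encodes a liprin, and its neighbour REP15 were marked there by the same region, with a fold of 5.05. PPFIBP1 held 2 control and 11 knockdown regions in its body. BMAL2, a clock gene, was marked in the knockdown list alone with a fold of 3.86.

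The 3 other windows on chromosome 7 together held 8 of the 20 genes marked in both lists. PPIA, which encodes cyclophilin A, had 8 control and 190 knockdown fragments with folds of 5.05 and 16.5. POLM, a DNA polymerase gene, had folds of 7.17 in the control list and 4.99 in the knockdown list. TMED4 likewise had 6.66 and 4.63, and RABGEF1, an exchange factor gene for RAB5, had 7.49 and 5.38. These 3 had the higher fold in the control list. PURB, a DNA-binding protein gene, had folds of 5.57 and 6.74, and CRCP had 6.03 and 6.10. PRR15 had 5.78 and 9.23, and SCRN1 had 3.83 and 6.84. In the knockdown list alone DBNL, an actin-binding protein gene, had a fold of 10.5, TMEM248 10.4, CCM2 5.08 (just beyond the window), DDX56, an RNA helicase gene, 4.92, WIPF3 2.77, CPVL 2.69 and KCTD7 2.13. No end of CHN2, CAMK2B, YKT6, SBDS or TYW1 had a region in either list. CHN2 nevertheless held 2 control and 13 knockdown regions in its body.

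Of all 20037 genes, 5.12% were marked in both lists, 31.7% in the knockdown list alone and 1.29% in the control list alone, and the counts by function stand beside these shares. Of the genes chosen for caveolae and actin, 4 of the 6 were marked in both lists and 2, CAV1 and WIPF3, in the knockdown list alone. All 6 have an end in a window, and of the window genes 21.7% were marked in both lists. TES, CAV2, CAV1 and CAPZA2 are neighbours in the MET window, where 4 of 7 genes were marked in both. Location and function cannot be told apart here. Of 9 genes of growth signalling, 8 of which have an end in a window, 2 (MET and LGR4) were marked in both lists, 3 in the knockdown list alone, near the share of all genes, and 4 in neither. Of 20 genes often amplified in gastric cancer, only MET, MDM2 and SOX9 have an end in the 12 windows. The 1 Mb windows of the other 17 had median backgrounds of 1.00 to 2.28 times the floor in the control list and 1.33 to 3.16 times in the knockdown list, the highest at HMGA2 in both. Epithelial markers were marked in 8 of 9 cases, 5 of them in both lists, while CDX1 was in neither. Of 7 markers of other lineages, only the knockdown list marked VIM, ZEB1 and CD3E, and 4 were in neither, which is also near the share of all genes. All these lists were drawn up with earlier results of the same data known.

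Low folds gathered in the windows of the knockdown list. Of the 58 knockdown regions with a fold under 2 in the whole list, 39 lay in the windows, 20 of them in the MET window. Of the 12 control regions with such a fold, 0 lay in the windows. The median fold in the windows was 4.35 in the control list and 3.35 in the knockdown list, beside 4.78 and 4.22 outside. In the MET window it was 4.12 from a median of 20 fragments in the control list and 2.22 from 125 in the knockdown list. By its definition the same fold takes more fragments where the background is higher. A fold under 2 therefore passes the q threshold only where the background is high, and the windows were chosen on high background. Backgrounds in the windows reached 5.73 fragments in the control list and 92.6 in the knockdown list. The counts of low folds thus follow from the choice of windows and from these levels, and are a description only.

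**Figure D5:**
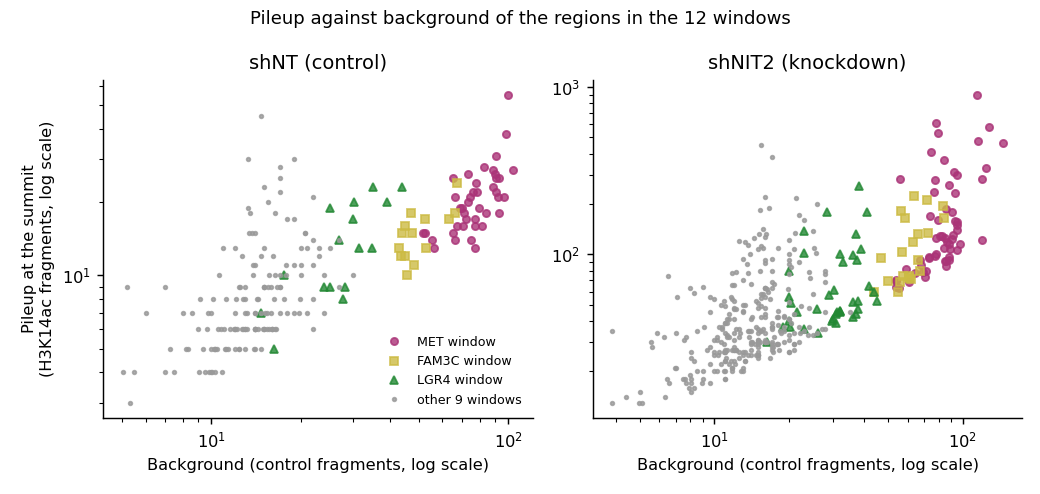
Pileup at the summit (H3K14ac fragments) against the background (control fragments) of each region in the windows, both on log scales, in the control list (left) and the knockdown list (right). In both lists the regions of the MET window lie at the highest backgrounds, around 77.1 and 84.6 control fragments, and reach 55 and 894 fragments.

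Promoters of the window genes differed in CpG content by state. The median CpG count in the 250 bases before the start was 27 for 18 genes marked in both lists, 23 for 31 genes marked in the knockdown list alone and 6 for 33 genes marked in neither. GGGCGG stood in 13 of the 18, 21 of the 31 and 12 of the 33. CCAAT stood in 6, 8 and 16 of them, and TATAAA in 2, 1 and 8, most often in genes marked in neither. The same counts by state were not made for genes outside the windows. None of the 6 microRNA hairpins in the windows had a region within 1 kb in either list.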

How the data were processed

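H3K14ac ChIP-seq of 4 samples (1 immunoprecipitate and 1 input per hairpin) gave 2 deposited lists of regions, 1 per immunoprecipitate. The inputs and the reads were not used here, so library totals are not known. Single-end reads of 75 bases came from libraries amplified for 15 cycles, per the labels. Per the submitters' processing notes, MACS2 2.1.1, Bowtie2 2.2.6 and the build hg38 were used, beside Trimmomatic 0.35 and cutadapt 1.9.1, and no source used here gives the treatment of duplicates. For each region the authors deposited a score, a fold (the ratio of pileup to background, each with a pseudocount of 1), the −log10 p and the −log10 q. The smallest −log10 q was 1.30 in both, a q of 0.05.

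Pileup and background were solved from the fold and the −log10 p (tolerance 0.1%) with the Poisson upper tail, in Python 3.11.15 with scipy 1.17.1, after a check on simulated data. Genes came from a RefSeq table of GRCh38.p14, and 82 of the 92 window genes had a promoter there. Named were all genes marked in both lists, in each window the top pair by fold of those marked in the knockdown list alone, and a list of neighbours and signalling genes. Values are of 1 library per arm, with no replicate. Members, lists and tests were chosen with earlier results of these data known. Alternatives were stricter thresholds, other overlap and gene-end rules, and leaving out windows.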

Additional observations from a re-analysis of the deposited data

How the results depend on the processing

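Of the 56 alternative values computed, 32 stayed within 1.5 times the main count, or within the 95% interval of the main share or median, and 24 moved. With regions of −log10 q of at least 5 only, there were 87 control and 272 knockdown regions (7.25 and 22.7 per window), with median widths of 405 and 1071 bp, a control background of 1.14, a control share of 64.4%, and 10 genes marked in both lists. With a fold of at least 5 only, there were 88 and 112 regions (7.33 and 9.33 per window), with widths of 411.5 and 1502 bp and shares of 53.4% and 32.1%, so the lead of the knockdown list in number shrank. Without the 5 windows on chromosome 7 the control share was 50%. Without the MET window the median backgrounds were 0.827 and 9.70. A reciprocal overlap of at least 50% left shares of 6.64% and 3.62%. The cause of these shifts was not tested. With equal numbers of the strongest regions the control share was 51.5%. Gene ends of 3 kb left 3 genes in the control list alone, and whole gene spans 5, with 39 in both lists. Chosen after seeing the data, setting aside each chromosome's longest stretch without genes moved the control share outside the windows to 16.7% and the control width there to 314 bp. The knockdown list had more and wider regions in the windows under each setting for which number and width were computed. Each list rests on 1 library, depth differs between them, and copy number was not measured.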
